A study of Mus musculus with 12 samples.

Results

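Carboxylesterase genes were examined in C166 cells, a line grown from mouse yolk sac endothelium. A gene was taken if its symbol was Ces followed by a number and a letter. Of 17306 tested probe sets, called genes below, 11 met this. Members were chosen by brightness, as the 10 with the highest mean log2 intensity over all 12 arrays. They are Ces2g, Ces1d, Ces1g, Ces1f, Ces2a, Ces1h, Ces2e, Ces2b, Ces4a and Ces1e. The dimmest one kept, Ces1e, had a mean log2 intensity of 2.38, and the one left out, Ces1c, had 2.16. Ces1d and Ces1g were always to be included, chosen by their low level in VEGF-up relative to GFP cells in earlier work on these arrays. Their values in the comparisons that hold the VEGF-up arrays are therefore given without a test. That choice also used the GFP arrays, so their tests in VEGF-down against GFP cells are not independent of it.

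There were 3 groups of 4 arrays, and every group carried a lentiviral GFP vector given at a multiplicity of infection of 10. VEGF-up cells carried GFP and an shRNA matching one stretch of the Vegfa promoter, named for raising Vegfa. VEGF-down cells carried GFP and an shRNA matching another stretch, named for lowering it. GFP cells carried the marker alone. The study's title asks after off-target effects of regulating Vegfa in this way. RNA was taken on day 7, and the design as analysed had no untransduced cells, so the shRNA groups are compared with vector-bearing cells of the same line. The labels do not say that replicates were separate cultures, and p-values measure the spread between these samples, which may be technical.

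Carboxylesterases are serine hydrolases of the endoplasmic reticulum that cleave esters and amides. They are best known from liver and intestine, where they activate or clear ester drugs and toxins and hydrolyse triglycerides and cholesteryl esters. Mice have several subfamilies encoded by tandem gene clusters on chromosome 8. Ces1d encodes the triacylglycerol hydrolase that mobilises stored fat in liver and adipose tissue. Ces1f encodes a related liver lipid hydrolase, and Ces1g the enzyme that limits lipid synthesis in mouse liver. Ces1e encodes egasyn, which holds beta-glucuronidase in the endoplasmic reticulum.

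Vegfa followed its labels, with a log2 intensity of 7.35 to 7.68 in VEGF-up cells, 6.46 to 6.61 in VEGF-down cells and 7.13 to 7.37 in GFP cells. Array medians lay between 35.6 and 37.1 in linear intensity units. They were 35.6 to 35.8 in VEGF-up, 36.4 to 37.1 in VEGF-down and 36.0 to 36.6 in GFP cells, lowest on all VEGF-up arrays. The lowest correlation across genes between arrays of a group was 0.9985. The labelled cell type was only partly borne out. Of 15 endothelial markers, 4 were above background in each group (Kdr, Flt1, Esam and Egfl7), while Pecam1, Cdh5, Tek, Tie1 and Vwf were not. All 10 mesothelial markers, among them Msln, Upk3b and Wt1, were above background in VEGF-down cells, and 9 were in VEGF-up and in GFP cells, Krt8 being the exception. Of 8 hepatocyte markers 1 was above background in every group, with Alb, Apoa1 and Ttr below it. Of 6 adipocyte markers 3 were, with Adipoq below it. All 7 fibroblast markers, among them Dcn and Col3a1, were above background in every group.

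Only 4 of the 10 carboxylesterase genes were above the background level, which was set at a log2 intensity of 3.07 from chemosensory receptor genes. These were Ces1d, Ces1f and Ces1g of the first subfamily and Ces2g of the second. Each of them lay above that level on all 12 arrays. The groups differed most in the 3 Ces1 genes. Ces1d had its highest mean in GFP cells, and Ces1f, Ces1g and Ces2g in VEGF-down cells.

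**Figure D1:**
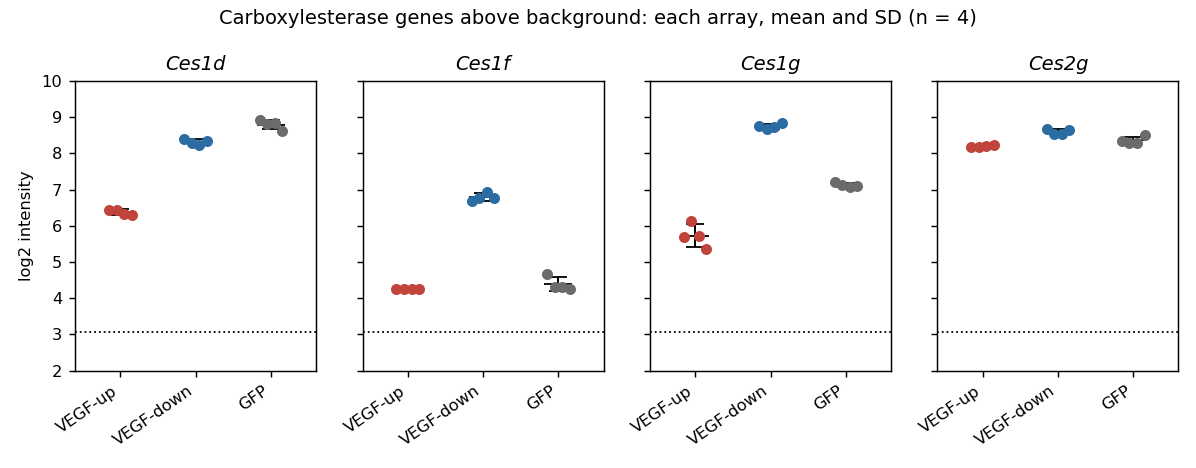
The 4 panels plot log2 intensity on each array (points) with the group mean and SD (bars, n = 4), and the dotted line marks the background level of 3.07. Ces1d was lowest in VEGF-up cells, Ces1f was high only in VEGF-down cells, and Ces1g was highest in VEGF-down and lowest in VEGF-up cells.

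Both comparisons with GFP cells share the 4 GFP arrays, which also took part in the choice of Ces1d and Ces1g. A gene chosen for a GFP level above its VEGF-up level leans toward a fall in VEGF-down against GFP cells. The p-values of Ces1d and Ces1g there are therefore descriptive. In VEGF-down cells against GFP cells, all 4 carboxylesterase genes above background changed, Ces1d and Ces1g with that limit. Ces1f, Ces1g and Ces2g rose, by 5.30-fold, 3.07-fold and 1.18-fold, and Ces1d fell by 0.47 on the log2 scale. In bulk RNA, fewer cells of a type and less RNA per cell cannot be told apart. The count is read against the background of this comparison, in which 31.0% of all tested genes changed (14.6% higher and 16.4% lower in VEGF-down cells), and 45.0% of those above background. The arrays of the groups did not overlap for 6 of the 10 members, the 4 above background and Ces4a and Ces1e, against 37.1% of all tested genes and 48.8% of those above background. The 6 dim members showed no change that passed the test (limma, adjusted p of at least 0.0694 for each), with 2 of them at an unadjusted p under 0.05. The rise of Ces2g did not hold when arrays were brought to equal poly-A spike-in signal (spike-in scaling), where it became -0.02 (adjusted p = 0.783). With that scaling the median of all tested genes moved to -0.27 in VEGF-down and to -0.14 in VEGF-up cells, each against GFP cells, from -0.01 as deposited. In this comparison Ces1f, Ces1g and Ces1d kept direction and call with quantile normalization, median centring and spike-in scaling.

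Ces1f had intensities of 103, 109, 122 and 110 in VEGF-down cells, against 25.4, 19.7, 19.9 and 19.2 in GFP cells. All VEGF-down arrays were higher than all GFP arrays. The log2 level averaged 6.79 ± 0.105 in VEGF-down cells and 4.39 ± 0.188 in GFP cells (SD, n = 4 each). The log2 difference was 2.41 ± 0.08 (SE, limma adjusted p = 4.21e-09, exact two-sided permutation p = 0.0286, the smallest that 4 against 4 arrays can give). It was the 18th largest rise among the 10908 genes above background. The authors' deposited table lists a fold change of 5.72 for Ces1f in this comparison.

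Ces1f was nearly flat outside VEGF-down cells. In VEGF-up cells its intensities were 19.2, 19.0, 19.3 and 19.1. Their SD on the log2 scale was 0.009, where genes of like level in that group had a median SD of 0.041 (458 genes within 0.25 of it). Of those genes, 29.0% varied as little or less. Whether this level is a floor of the probe set was not tested. GFP replicate 1 was the only array of these 8 clearly above the others. Without it the rise in VEGF-down cells was 2.50.

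Ces1g had intensities of 435, 405, 426 and 458 in VEGF-down cells, against 148, 139, 136 and 138 in GFP cells. Again no VEGF-down array overlapped a GFP array. The log2 level averaged 8.75 ± 0.074 in VEGF-down cells and 7.13 ± 0.056 in GFP cells (SD, n = 4 each), a difference of 1.62 ± 0.13 (SE, limma adjusted p = 2.20e-06, exact permutation p = 0.0286). It was the 49th largest rise among genes above background. The authors' deposited table gives a fold change of 3.07.

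Ces1d moved the other way. Its intensities were 338, 315, 302 and 326 in VEGF-down cells, against 485, 447, 458 and 393 in GFP cells, with no overlap. The log2 difference was -0.47 ± 0.06 (SE, limma adjusted p = 0.000166, exact permutation p = 0.0286), which is 1.39-fold lower. The choice of Ces1d used the same GFP arrays, so these p-values are no independent test of a fall. Ces1d is not listed in the authors' deposited table for VEGF-down cells. Its fall ranked 661st from the bottom of the 10908 genes above background.

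Ces2g, a member of the subfamily whose enzymes act mainly on esters with a small acyl group, had intensities of 411, 371, 373 and 397 in VEGF-down cells, against 324, 314, 315 and 365 in GFP cells. The groups did not overlap, although GFP replicate 4 came close to the lowest VEGF-down array. The log2 difference was 0.24 ± 0.05 (SE, 95% interval 0.13 to 0.35, limma adjusted p = 0.00372, exact permutation p = 0.0286).

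Pairs of the 4 detected genes were also set against each other within arrays, which removes any scaling of the array as a whole. The pairs follow from the values just given, so they are described without a test. The log2 gap of Ces1d over Ces1g was -0.43 ± 0.08 in VEGF-down cells and 1.66 ± 0.11 in GFP cells (SD, n = 4 each), a difference of -2.09 between the groups. The same difference was -2.88 for the gap of Ces1d over Ces1f and 0.71 for that of Ces2g over Ces1d. For the gap of Ces1g over Ces1f it was -0.79.

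In VEGF-up cells the picture was different. Ces1d was 5.36 times lower than in GFP cells and Ces1g 2.65 times lower, and these are the values for which both were chosen. Of the other 8 genes none changed by limma's test (0 of 8, with 3 at an unadjusted p under 0.05), where 13.2% of all tested genes changed (6.73% higher and 6.51% lower in VEGF-up cells) and 20.8% of those above background. Among these 8 the arrays did not overlap for 1 gene, Ces2g, against 18.0% of all tested genes and 27.4% of those above background.

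Ces1d had intensities of 87.3, 86.9, 79.6 and 78.4 in VEGF-up cells, against 485, 447, 458 and 393 in GFP cells. The highest VEGF-up array was far below the lowest GFP array. The log2 level averaged 6.37 ± 0.082 in VEGF-up cells and 8.80 ± 0.129 in GFP cells (SD, n = 4 each), a difference of -2.42 ± 0.06 (SE). The authors' deposited table gives a fold change of -5.37 for Ces1d.

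Ces1g had intensities of 51.9, 70.4, 52.6 and 41.0 in VEGF-up cells, against 148, 139, 136 and 138 in GFP cells. The groups did not overlap, but the VEGF-up arrays were more spread out than those of any other group for this gene, with an SD of 0.320 on the log2 scale against 0.056 in GFP cells. The log2 difference was -1.40 ± 0.13 (SE). The authors' deposited table gives -2.60 as its fold change.

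Ces2g had intensities of 290, 288, 297 and 299 in VEGF-up cells, against 324, 314, 315 and 365 in GFP cells. All VEGF-up arrays were below all GFP arrays, but the difference, -0.16 ± 0.05 on the log2 scale (SE), missed the threshold (limma adjusted p = 0.0555, exact permutation p = 0.0286). Its 95% interval ran from -0.27 to -0.05. The result lay close to the threshold and passed it in 3 alternative settings, with adjusted p = 0.0349 among genes above background alone and adjusted p = 0.0065 with spike-in scaling. The third was a replicate block, with adjusted p = 0.0376. For Ces1f the difference was -0.13 ± 0.08 (adjusted p = 0.284, exact permutation p = 0.0571), with a 95% interval of -0.31 to 0.06. It shrank to -0.03 without GFP replicate 1.

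**Figure D2:**
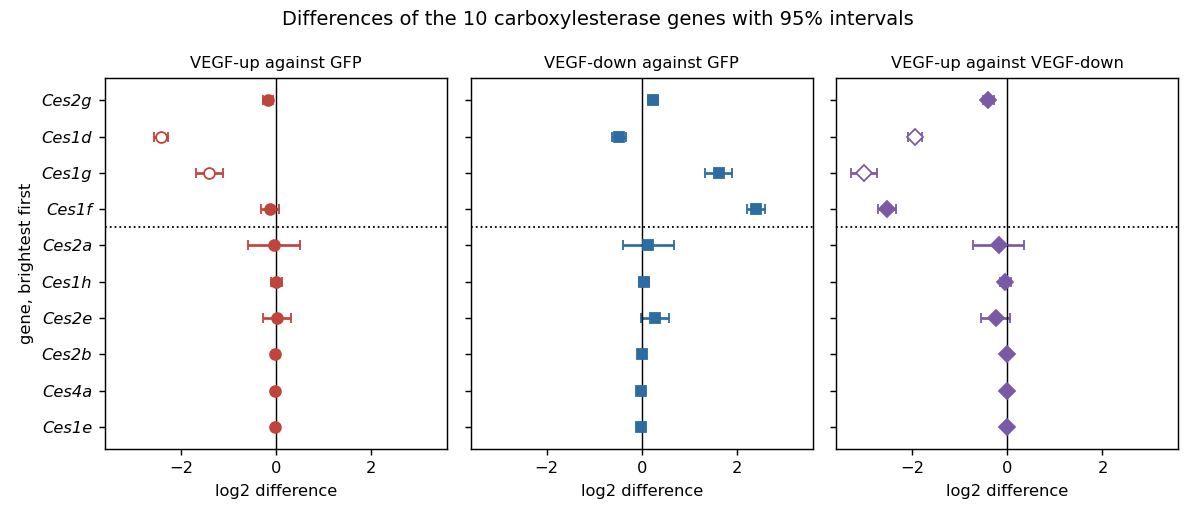
Log2 differences of the 10 genes (rows, brightest first) in the 3 comparisons, with 95% intervals from limma. Open symbols are the values of Ces1d and Ces1g in comparisons that hold the VEGF-up arrays, which were not tested. The dotted line separates the 4 genes above background from the 6 below it. Ces1f and Ces1g lay to the right in VEGF-down cells and Ces1d to the left in both shRNA groups.

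Set against each other, the shRNA groups differed in all 4 detected genes. Ces1g was 8.13 times lower in VEGF-up than in VEGF-down cells (log2 difference -3.02 ± 0.13, SE) and Ces1d 3.86 times lower (-1.95 ± 0.06), both given as descriptions. Of the 8 genes tested, 2 fell and none rose by limma's test (0 rises also at an unadjusted p under 0.05), against 30.6% of all tested genes that changed (15.1% higher and 15.5% lower in VEGF-up cells) and 48.1% of those above background. Among these 8 the arrays did not overlap for Ces1f and Ces2g, against 32.8% of all tested genes and 51.5% of those above background. Ces1f fell by 2.53 on the log2 scale (SE 0.08, limma adjusted p = 2.03e-09). Ces2g fell by 0.40 (SE 0.05, limma adjusted p = 7.43e-05). In both, all VEGF-up arrays were below all VEGF-down arrays (exact permutation p = 0.0286). This comparison is the difference of the other two and shares their arrays.

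Ces1d was highest in GFP cells, a little lower in VEGF-down cells and lowest in VEGF-up cells. Ces1g was highest in VEGF-down cells, intermediate in GFP cells and lowest in VEGF-up cells. The means of Ces2g had the order of those of Ces1g over a much narrower range, with its VEGF-up and GFP levels not separated by the test. Ces1f was high in VEGF-down cells, and its VEGF-up and GFP arrays overlapped.

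The 6 dim members had mean levels at or below background, so their differences say little about expression. Ces2a, which encodes a liver and intestinal esterase, was at the border, with intensities from 5.52 to 9.99 in VEGF-up cells, 7.12 to 11.5 in VEGF-down cells and 5.48 to 11.2 in GFP cells. Its groups overlapped fully (limma adjusted p = 0.644 for VEGF-down against GFP cells). Ces2e had 9.61, 7.24, 5.72 and 5.90 in VEGF-down cells, against 5.70, 5.81, 5.76 and 5.70 in GFP cells, so that 1 VEGF-down array passed the background of 8.40 in intensity (log2 difference 0.28, limma adjusted p = 0.125). Ces1h lay between 7.13 and 8.61 on all arrays, and likewise only VEGF-down replicate 3 passed background. Ces2b lay between 5.27 and 5.54, Ces4a between 5.25 and 5.36 and Ces1e between 5.15 and 5.28. The gene left out as the dimmest, Ces1c, which encodes the plasma esterase, lay between 4.44 and 4.51.

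The genes sit in 2 clusters on chromosome 8 by the RefSeq order of assembly GRCm38.p6. The first holds 9 carboxylesterase genes, of which 6 were measured and 3 were above background, in the order Ces1c, Ces1d, Ces1e, Ces1f, Ces1g and Ces1h. Within it the background-level gene Ces1e lies between Ces1d and Ces1f, and Ces1h follows Ces1g. Genes that moved in opposite directions in VEGF-down cells are therefore close together, with a gene at background between them. The second cluster holds 10 carboxylesterase genes, of which 5 were measured and Ces2g alone was above background. Paralogs within a cluster are similar in sequence, and cross-hybridisation between their probe sets was not tested, as probe sequences were not used here.

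Beyond the ends of the first cluster, 6 of the 10 nearest measured protein-coding genes were above background. The 10 differed from GFP cells by -0.11 to 0.67 in VEGF-down and by -0.33 to 0.04 in VEGF-up cells. Over all tested genes 31.0% changed in VEGF-down and 13.2% in VEGF-up cells, and 45.0% and 20.8% of those above background. In VEGF-down cells 1 of the 10 neighbours rose, Bbs2, which encodes a subunit of the ciliary BBSome complex (0.67 ± 0.09 SE, limma adjusted p = 0.000207), and none fell. In VEGF-up cells 2 fell, Bbs2 (-0.33, adjusted p = 0.0425) and Mmp2, which encodes a gelatinase (-0.25, adjusted p = 0.00183). Bbs2 thus had the group order of Ces1g, with log2 levels of 7.01, 8.01 and 7.34 in VEGF-up, VEGF-down and GFP cells. Gnao1, which adjoins the cluster on one side and was above background, differed by at most 0.03 in either comparison with GFP cells. Slc6a2, on the other side, was not above background, so its flat values say little about expression.

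Around the second cluster, 7 of 10 neighbours were above background. The shares over all tested genes were again 31.0% in VEGF-down and 13.2% in VEGF-up cells, and 45.0% and 20.8% above background. In VEGF-down cells 2 of the 10 neighbours rose and 2 fell. D230025D16Rik (0.30) and Cbfb, which encodes a partner of RUNX factors (0.11), rose, and neither rise passed with spike-in scaling (0.04 and -0.15). Rrad, which encodes a small GTPase (-0.30), and the glycosyltransferase gene B3gnt9 (-0.40) fell. In VEGF-up cells Rrad (-0.69), B3gnt9 (-0.41) and Cbfb (-0.12) fell and D230025D16Rik rose (0.18, and 0.05 with spike-in scaling). Ciao2b on one side and Cbfb on the other are the measured neighbours nearest to the cluster. Ciao2b was at -0.01 in VEGF-down and 0.07 in VEGF-up cells, while Cbfb changed in both as given above. Over the neighbours of both clusters, spike-in scaling gave 1 rise and 15 falls in VEGF-down cells, and median centring 3 rises and 9 falls. Over all 17306 tested genes the falls were 13913 and 8163.

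**Figure D3:**
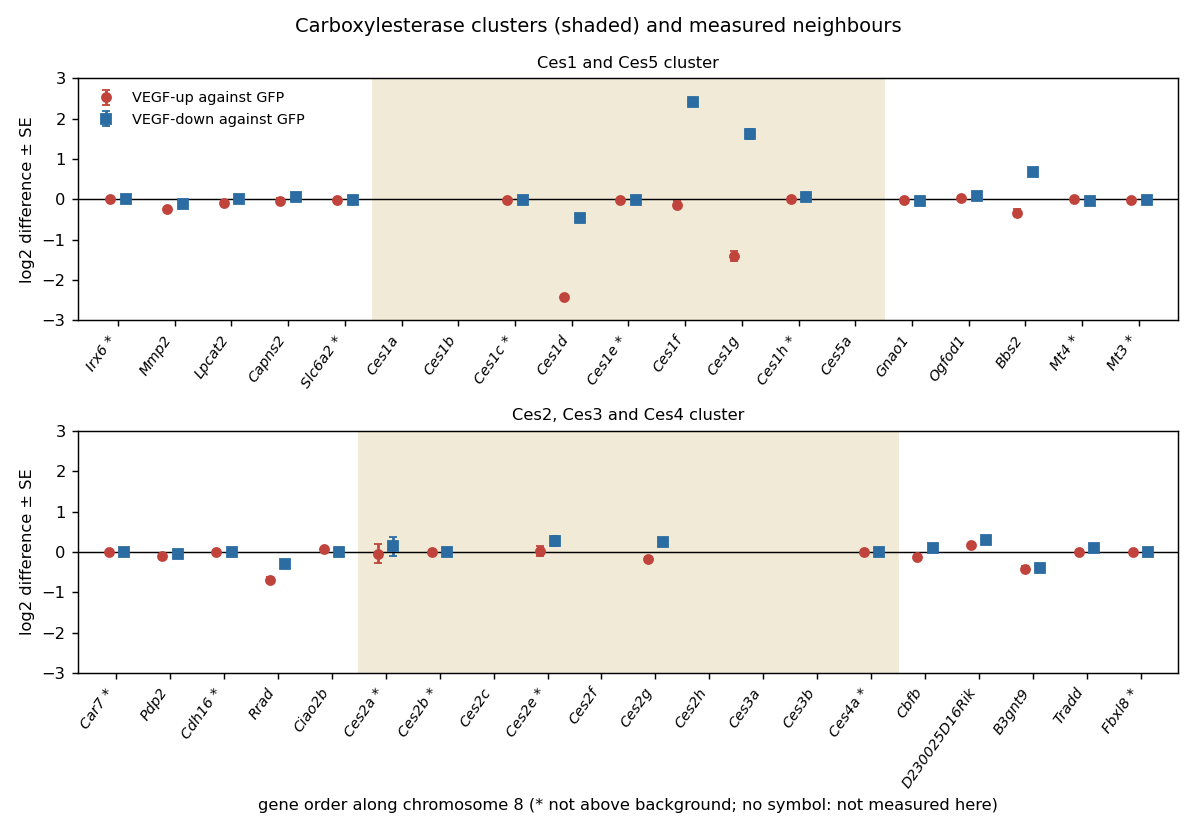
Log2 differences (± SE) of the carboxylesterase genes (shaded) and their nearest measured neighbours in chromosomal order, for VEGF-up (circles) and VEGF-down (squares) against GFP cells. Among measured genes outside the shading, the differences ran from -0.69 to 0.67. Ces1d and Ces1g were chosen for their low level in VEGF-up cells, so the size of their circles beside those of the neighbours is no test.

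RefSeq promoter sequence (GRCm38.p6, 250 bases before to 50 after the start) was at hand for 7 of the 10 genes, not for Ces1d, Ces1f or Ces2b. The promoters of Ces1g (chr8:93337160-93337459, minus strand) and Ces2g (chr8:104961468-104961767, plus strand) are shown because they are those at hand for genes above background. Both are written 5′ to 3′ in the direction of the gene, with motif matches in capitals.

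Ces1g: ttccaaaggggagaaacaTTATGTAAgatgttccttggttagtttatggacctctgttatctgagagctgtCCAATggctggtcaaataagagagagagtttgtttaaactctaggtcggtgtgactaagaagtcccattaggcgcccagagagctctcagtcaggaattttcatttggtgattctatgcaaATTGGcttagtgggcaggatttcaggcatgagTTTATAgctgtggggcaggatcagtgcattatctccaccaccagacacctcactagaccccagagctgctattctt

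Ces2g: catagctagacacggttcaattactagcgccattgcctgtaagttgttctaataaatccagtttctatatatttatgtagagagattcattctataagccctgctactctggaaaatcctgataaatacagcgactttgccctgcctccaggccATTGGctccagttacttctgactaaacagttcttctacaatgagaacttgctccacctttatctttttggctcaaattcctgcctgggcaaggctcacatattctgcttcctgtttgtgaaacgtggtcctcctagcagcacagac

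There were 7 motifs searched on both strands, chosen after the levels and the sequences had been seen. They are the TATA box (TATAAA), the CCAAT box (CCAAT), the nuclear receptor half-site (AGGTCA) and the D-box bound by PAR bZIP factors (TTATGTAA). The others are cores of the C/EBP site (TTGCNNAA), the antioxidant response element (TGACNNNGC) and the xenobiotic response element (GCGTG). Overlaps between motifs were allowed. The Ces1g promoter held a TATA box match that begins 26 bases before the start and reads TTTATA, so that TATAAA lies on the strand opposite to the gene. CCAAT box matches lay at 58 bases (ATTGG, opposite strand) and 179 bases (gene strand) before the start. A D-box match lay at 232 bases before it. The Ces2g promoter held 1 match, a CCAAT box on the opposite strand (ATTGG) at 96 bases before the start. Over the 32851 mouse promoters of this length in the table, 13.6% held the TATA box, 37.4% the CCAAT box and 0.938% the D-box. The D-box was also present in the promoters of Ces1c and Ces1e, whose levels were at background, and none of the other 4 motifs matched in Ces1g or Ces2g. The shares for these were 16.3% for the half-site, 10.8% for the C/EBP core, 12.4% for the antioxidant core and 32.4% for the xenobiotic core.

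The longest run of bases that the Ces1g promoter shared with another measured member was 11 bases, aaataagagag, with Ces1e. With Ces2g it was 7 bases.

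Genes whose levels over the 12 arrays were most like those of Ces1d and Ces1g were sought among 448 named genes above background whose group means spanned at least 1 on the log2 scale. For Ces1d these were the chemokine gene Cxcl15 (Pearson r = 0.992), the growth factor gene Igf1 (0.984), the transferrin gene Trf (0.970), the lipopolysaccharide coreceptor gene Cd14 (0.968) and the chemokine gene Ccl2 (0.951). Trf, unlike Ces1d, was at much the same log2 level in VEGF-down (11.58) and GFP cells (11.55). For Ces1g they were the lubricin gene Prg4 (0.995), Baiap2l1, whose product binds membranes and actin (0.993), Tmem86a, which encodes a lysoplasmalogenase (0.990), the protease gene Mmp3 (0.989) and the xanthine dehydrogenase gene Xdh (0.988). Prg4 stood at log2 levels of 3.89, 7.08 and 5.47 in VEGF-up, VEGF-down and GFP cells. Among the carboxylesterase genes themselves, r with Ces1g was 0.917 for Ces2g, 0.895 for Ces1f and 0.727 for Ces1d. The 12 arrays form 3 groups, so these values mostly reflect the group means and are given as descriptions.

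**Figure D4:**
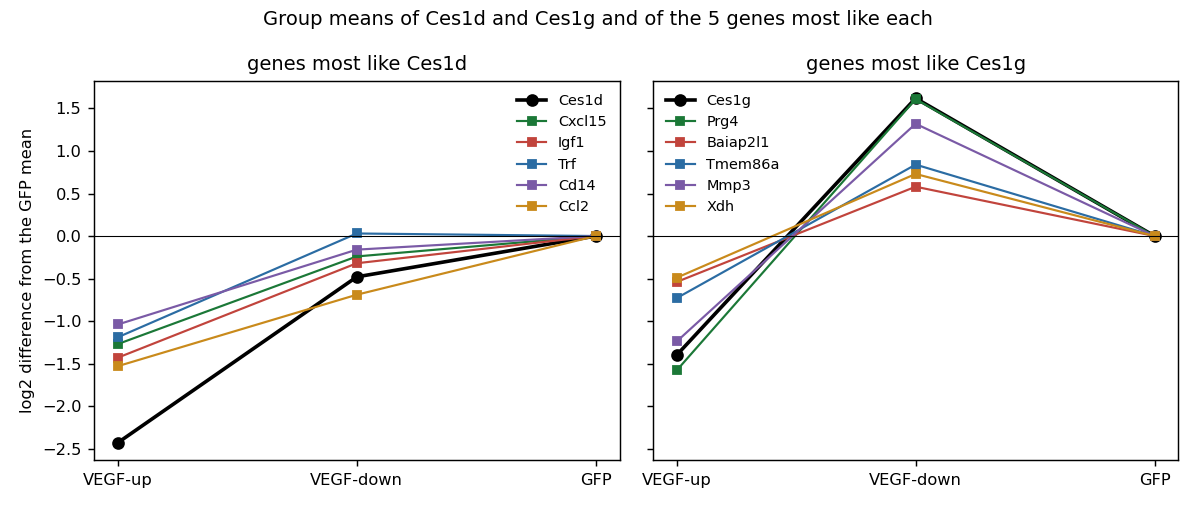
Group means of Ces1d (left) and Ces1g (right, black lines) and of the 5 genes most like each, as log2 differences from the GFP mean. All 5 genes like Ces1d were lowest in VEGF-up cells, and the 5 like Ces1g were lower in VEGF-up and higher in VEGF-down cells.

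Relatives that share the carboxylesterase fold gave little signal. Of 7 genes (Ache, Bche, Cel, Nlgn1, Nlgn2, Nlgn3 and Tg), 2 were above background on average, Nlgn2, which encodes a synaptic adhesion protein, and Cel, which encodes a pancreatic lipase. None changed in VEGF-up cells (0 by limma's test, also at an unadjusted p under 0.05), and 1 fell in VEGF-down cells, Nlgn3, by 0.01 at a level below background. Over all tested genes 13.2% changed in VEGF-up and 31.0% in VEGF-down cells. With median centring 5 of the 7 genes fell in VEGF-down cells, and with spike-in scaling all 7 did. Of all 17306 tested genes, 8163 fell there with median centring and 13913 with spike-in scaling. The median difference of the 7 genes in VEGF-down cells was -0.02, where it was -0.01 over all tested genes.

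Of 14 esterase genes of other families, 6 rose in VEGF-down cells, 1 fell and 7 were short of the threshold (median 0.07, against -0.01 over all tested genes, of which 14.6% rose and 16.4% fell). With median centring 6 rose and 5 fell. The paraoxonase gene Pon2 (0.59 ± 0.05), the sialic acid esterase gene Siae (0.54 ± 0.05), the cholesteryl ester hydrolase gene Nceh1 (0.43 ± 0.03) and Bphl, whose enzyme activates ester prodrugs (0.33 ± 0.05), were the larger rises. With spike-in scaling 2 rose, Pon2 and Siae, and 7 fell, where 13913 of all 17306 tested genes fell (8163 with median centring). Cmbl, which encodes another prodrug-activating hydrolase, fell by 0.87 (SE 0.08) in VEGF-down and by 0.87 in VEGF-up cells. In VEGF-up cells 2 genes fell, Cmbl and Pon3 (-0.23), and none rose by limma's test (0 rises, 1 at an unadjusted p under 0.05). Over all tested genes 6.51% fell and 6.73% rose there. Between the shRNA groups 6 of the 14 were lower in VEGF-up cells, Pon2 (-0.65) and Siae (-0.64) the most, where 15.5% of all tested genes were lower. Of the 14 genes, 10 were above background. Among all genes above background 45.0% changed in VEGF-down cells, 20.8% in VEGF-up cells and 48.1% between the shRNA groups.

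Lipase and lipase cofactor genes numbered 18, of which 14 were above background. VEGF-down cells had 3 rises and 2 falls (median 0.03), and VEGF-up cells 1 rise and 4 falls (median -0.01). Over all tested genes 31.0% changed in VEGF-down and 13.2% in VEGF-up cells, and 45.0% and 20.8% of those above background. Lpl, which encodes the lipoprotein lipase of vessel walls, fell by 0.79 in VEGF-up cells (SE 0.02) and rose by 0.31 in VEGF-down cells (SE 0.02), and the rise became 0.05 with spike-in scaling. Lipa, the lysosomal acid lipase gene, fell in both, by 0.41 in VEGF-down and by 0.26 in VEGF-up cells. Abhd12, a lysophosphatidylserine lipase gene, rose by 0.39 in VEGF-down cells (0.13 with spike-in scaling), and Abhd6, a monoacylglycerol lipase gene, fell by 0.34. Mgll, another monoacylglycerol lipase gene, fell by 0.33 in VEGF-up cells. Among 22 genes of triglyceride synthesis and lipid droplets, 15 were above background. VEGF-down cells had 2 rises and 2 falls (median -0.01), and VEGF-up cells 3 rises and 2 falls (median -0.01). These counts are read against the same shares over all tested genes as those of the lipases. Plin4, a droplet coat gene, fell in both (-0.69 and -0.53). Apob, which encodes the protein that carries exported lipid, rose in VEGF-down cells (0.47), and Gpat3, an acyltransferase gene of triglyceride synthesis, in VEGF-up cells (0.72). With spike-in scaling 14 of the 18 lipase genes and 20 of the 22 triglyceride and droplet genes fell in VEGF-down cells, and with median centring 3 and 12 did. Of all 17306 tested genes, 13913 fell with spike-in scaling and 8163 with median centring.

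Of 17 measured transcription factor genes linked to carboxylesterase expression, mostly in liver, 12 were above background. The drug-sensing receptor genes Nr1i2 and Nr1i3 were not, nor were Ppara, Ppard and Hnf4a. In VEGF-down cells 3 rose and 2 fell (median -0.01), where 14.6% of all tested genes rose and 16.4% fell. Among all genes above background 45.0% changed in VEGF-down and 20.8% in VEGF-up cells. Cebpd (1.04 ± 0.14), the aryl hydrocarbon receptor gene Ahr (0.73 ± 0.04) and the antioxidant regulator Nfe2l2 (0.27 ± 0.03) rose, the last at 0.01 with spike-in scaling. Cebpb (-0.38) and Sp1 (-0.12) fell. With spike-in scaling 2 rose and 13 fell, and with median centring 4 and 8 did. Of all 17306 tested genes, 13913 fell with spike-in scaling and 8163 with median centring. In VEGF-up cells, where 6.51% of all tested genes fell, 4 fell, namely Ahr (-0.36), Nfe2l2 (-0.17), Cebpb (-0.13) and Sp1 (-0.10). None rose there by limma's test (0 rises, also at an unadjusted p under 0.05). After median centring the falls of Cebpb and Sp1 in VEGF-up cells did not pass. With quantile normalization that of Sp1 did not.

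Markers of other cell types moved beside these results. Over all tested genes 31.0% changed in VEGF-down and 13.2% in VEGF-up cells, and 45.0% and 20.8% of those above background. In VEGF-down cells 7 of 10 mesothelial markers rose and 2 fell, with a summed intensity of 15040 to 15500 in VEGF-down cells, against 11230 to 12170 in GFP cells. With spike-in scaling 6 rose and 2 fell. Krt8, not above background in GFP cells, Msln (2.63), Krt19 (1.97) and Upk1b (1.17) rose, while Bnc1 (-0.63) and Lrrn4 (-0.55) fell. In VEGF-up cells 2 rose and 4 fell, and the sum was 10310 to 10910. All 7 fibroblast markers fell in VEGF-down cells, with a sum of 12520 to 13040 in VEGF-down cells, against 15860 to 17410 in GFP cells. In VEGF-up cells 5 of the 7 fell and 1 rose, with a sum of 13270 to 13610. Of 6 macrophage markers 2 were above background in every group, Cd68 and Csf1r, with sums of 124 to 140 in VEGF-up, 132 to 149 in VEGF-down and 146 to 164 in GFP cells. The endothelial sum was 189 to 250 in VEGF-up, 443 to 471 in VEGF-down and 177 to 185 in GFP cells. Kdr rose in VEGF-down cells by 3.33, to a log2 level of 8.30 from 4.96 in GFP cells. As deposited, it was the only one of the 15 endothelial markers to change there (0 falls, 6 at an unadjusted p under 0.05). Among adipocyte markers Fabp4 fell in both shRNA groups (-0.52 in VEGF-up and -1.16 in VEGF-down cells), and the list's sum was 166 to 187 in VEGF-up, 101 to 134 in VEGF-down and 182 to 208 in GFP cells. For hepatocyte markers the sums lay between 49.8 and 52.9 on all arrays. The part of these shifts in the carboxylesterase differences was not tested.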

How the data were processed

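Arrays of 12 samples were labelled with a 3′ kit. Each probe set has a linear intensity that the authors deposited, and the submitters' processing notes name GCRMA (version not given in the sources used here). The authors' deposited tables, 1 for each shRNA, hold a T-statistic and a signed fold change (scores, per the file headers) and a p-value and q-value whose test the headers do not describe. Only listed carboxylesterase genes were read from them.

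No offset was added before log2 was taken of the deposited intensities. The 64 control probe sets were left out and 17306 were tested, of which 16464 had 1 gene symbol, 0 had several and 842 had none. Symbols came from the platform table, updated through a RefSeq table of GRCm38.p6 by Entrez number. The 3 group means were estimated in 1 fit of the 12 arrays (limma 3.58.1, R 4.3.3) with a variance trend and two-sided tests, and p-values adjusted by Benjamini-Hochberg over all tested genes (threshold 0.05). Exact permutation tests used the 8 log2 values. "Rose", "fell" and "changed" mean past limma's test. The fit was tested on simulated data. Background is the 95th percentile of the mean levels of 68 chemosensory receptor genes.

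Replicate numbers recur in the groups. The deviations of same-numbered arrays correlated between -0.082 and 0.134 in 12 pairs, 1 of them over 0.1, so no block was used. Alternatives were another scaling (quantile, median, spike-in), an offset, a filter on dim genes, no variance trend, fewer groups, a replicate block and leaving out arrays. Precision is limited by having 4 arrays a group.

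The members, lists and motifs were chosen with earlier results of these data known. Named were all members, up to 4 genes per list and direction with the largest changes above background, defining markers, up to 5 measured neighbours on each side of a cluster, and the 5 genes most like Ces1d and Ces1g.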

Additional observations from a re-analysis of the deposited data

Results flagged for a closer look

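In 4 of 30 groups (10 genes in 3 groups) 1 array stood far from the others by Dixon's ratio of gap to range. Chance flags about 1 in 20 groups. Ces1f in GFP replicate 1 was at a log2 level of 4.67, with the other GFP arrays at 4.27 to 4.31 (ratio 0.882). Ces1h in VEGF-down replicate 3 was at 3.11, with the others at 2.85 to 2.86 (ratio 0.946). Ces2e in VEGF-up replicate 1 was at 2.67, with the others at 2.49 to 2.52 (ratio 0.856). Ces1e in GFP replicate 2 was at 2.40, with the others at 2.38 (ratio 0.874). Of these genes Ces1f alone is above background.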

How the results depend on the processing

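For Ces1d, Ces1f, Ces1g and Ces2g there were 96 values under 8 alternative settings that keep all arrays, and 86 kept their direction and side of the threshold or moved by less than the replicate SD. With spike-in scaling Ces2g turned to -0.02 in VEGF-down cells, and against GFP cells the VEGF-up differences became -0.30 for Ces2g (adjusted p = 0.0065), -0.26 for Ces1f (adjusted p = 0.0213) and -2.56 for Ces1d. There Ces1d was -1.82 in VEGF-up against VEGF-down cells. Also with spike-in scaling the dim genes Ces1h and Ces2b turned to -0.21 and -0.26 in VEGF-down cells, and after median centring Ces4a turned to 0.04 in VEGF-up against VEGF-down cells. With an offset of 16 Ces1d was -2.22 in VEGF-up against GFP cells and -1.76 against VEGF-down cells, and Ces1g -2.69 against VEGF-down cells. The fall of Ces2g in VEGF-up cells (-0.16) passed the test among genes above background (adjusted p = 0.0349) and with a replicate block (adjusted p = 0.0376), which changed no other call of these 4 genes.

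The number of tested members changed in VEGF-up against GFP cells was 0, and 2 with spike-in scaling, 1 with only genes above background and 1 with the replicate block. In VEGF-down cells it was 4, and 7 with spike-in scaling, 6 with median centring and 5 with only the groups compared. In VEGF-up against VEGF-down cells it was 2, and 4 after median centring. Over all genes, 5358 changed in VEGF-down cells, but 14740 with spike-in scaling and 10708 with median centring, the share of rises being 47.1%, 5.61% and 23.8%. In VEGF-up against GFP cells the share was 50.9%, and 8.24% with spike-in scaling. In VEGF-up against VEGF-down cells 5288 changed (49.3% rises), 5072 with spike-in scaling (72.1%) and 11521 with median centring (78.3%). The cause of these moves was not tested.

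Leaving out 1 array at a time gave 0 to 1 changed members in VEGF-up against GFP cells (Ces4a, at -0.02, without VEGF-up replicate 3), 4 in VEGF-down against GFP cells and 2 between the shRNA groups. Ces1d ranged from -2.48 to -2.38 in VEGF-up and from -0.53 to -0.43 in VEGF-down cells, Ces1g from -1.54 to -1.28 and from 1.59 to 1.65, Ces1f from -0.17 to -0.03 and from 2.36 to 2.50, and Ces2g from -0.19 to -0.11 and from 0.21 to 0.29, each against GFP cells.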
